A study of Mus musculus with 27 samples.

Results

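MHC class I and class II molecules are the surface proteins that carry peptides to T cells, and their genes were followed here through the first 4 days of conversion of mouse fibroblasts toward induced neurons (iNs). The set held 10 genes, taken by name from the 54532 genes of the expression table. The class I genes were H2-K1, H2-D1, B2m, Tap1 and Psmb8, and the class II genes were Cd74, H2-Aa, H2-Ab1, H2-Eb1 and Ciita. The cultures were mouse embryonic fibroblasts (MEFs), primary cells grown from pooled midgestation embryos without head and heart and known to carry other cell types such as macrophages. All cultures, day 0 included, had received lentiviruses for neuronal transcription factors and for the transactivator M2rtTA, which switches them on in the presence of doxycycline, given from day 0. On day 0 the medium also changed, from one with serum to a serum-free one with insulin, progesterone and basic FGF. Doxycycline, medium and time therefore cannot be told apart in the changes after day 0. Each of 3 genotypes, wild type (WT), Per1-/- and Per2-/- (knockouts of circadian clock genes, the alleles Per1tm1Drw and Per2tm1Drw), was sampled on days 0, 2 and 4 with 3 biological replicates, giving 9 groups and 27 RNA-seq libraries. Library depth ran from 15815013 to 24264097 fragments assigned to genes. Values are FPKM, fragments scaled to gene length and to 1 factor per library, which can be compared between genes because they are per length. This factor was not the number of assigned fragments. Assigned fragments divided by it gave 1.08 to 1.16 on day 0 and 0.91 to 0.97 on days 2 and 4. Scaling by assigned fragments alone would give lower levels on day 0 and higher ones later, and was not run.

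The knockout labels and the cell label were checked first. Per1 transcript was 4.11 ± 0.866 FPKM in Per1-/- and 5.78 ± 0.479 FPKM in WT on day 0 (SD, n = 3), a difference that did not pass the test (limma, adjusted p = 0.771). Per2 transcript in the libraries labeled Per2-/- was 1.93 ± 0.068 FPKM against 0.894 ± 0.0709 FPKM in WT on day 0 (SD, n = 3), higher rather than lower (limma, adjusted p = 0.00114), so these libraries are called here by their label. The alleles may leave transcript outside the altered part, so neither level settles the genotype. The authors report, by western blot of MEFs, loss of PER1 protein in Per1-/- and of PER2 protein in Per2-/-. Although the labels call the cells induced neurons on every day, Col1a1, the main fibroblast collagen, stood at 901 to 2367 FPKM in the 27 libraries, and Tubb3, the neuronal tubulin, ranged from 15.9 to 156 FPKM.

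Class I molecules pair a heavy chain (H2-K1 or H2-D1) with the light chain beta-2 microglobulin (B2m), and they show peptides that the proteasome cuts in the cytosol and that the transporter TAP carries into the endoplasmic reticulum. Nearly every nucleated cell makes them, and interferons raise their genes. Class II molecules pair an alpha and a beta chain (H2-Aa with H2-Ab1, and H2-Eb1 with its own partner), ride with the invariant chain Cd74 through endosomes and show peptides of taken-up material. They belong to dendritic cells, B cells and activated macrophages, where the coactivator CIITA turns on the whole set.

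The genes cluster on chromosome 17. In the table's coordinates (GRCm38), H2-K1 spans 33996017 to 34000333 on the minus strand, Tap1 34187553 to 34197225 and Psmb8 34197721 to 34201454 on the plus strand. The class II genes H2-Ab1 (34263209 to 34269418, plus), H2-Aa (34282744 to 34287827, minus) and H2-Eb1 (34305877 to 34316199, plus) follow, and H2-D1 lies at 35262730 to 35267499 on the plus strand. Outside this complex, B2m is on chromosome 2 (122147686 to 122153083, plus) and Ciita on chromosome 16 (10480059 to 10528418, plus). All are protein-coding genes, and the values are sums over their exons.

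Stretches next to the start sites are shown because several of these genes moved together, and because interferon and CIITA act on them through short upstream motifs. RefSeq windows from 250 bases before to 50 bases after the start site (GRCm38.p6) were matched for 7 of the 10 genes. Searched on both strands were the interferon-stimulated response element as GAAA, any 2 bases and GAAA again, and the Y box, the inverted CCAAT element of MHC promoters, as GATTGG. Capitals mark the matches, which read CCAATC where the Y box lies on the other strand, and every sequence runs 5′ to 3′ on the gene's own strand. The pieces from H2-K1, H2-D1 and Tap1 are short because these windows overlap annotated exons.
B2m, chr2:122147437-122147685, plus strand: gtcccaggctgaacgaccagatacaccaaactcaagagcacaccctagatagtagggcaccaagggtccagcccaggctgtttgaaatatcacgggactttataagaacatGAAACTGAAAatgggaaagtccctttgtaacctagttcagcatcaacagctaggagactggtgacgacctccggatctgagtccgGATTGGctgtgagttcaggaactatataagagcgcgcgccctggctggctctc
H2-K1, chr17:34000322-34000351, minus strand: gatcaccaagaaCCAATCagtgtcgccgcg
H2-D1, chr17:35263029-35263058, plus strand: agattccaggagCCAATCagcgtcgccgcg
Tap1, chr17:34187322-34187351, plus strand: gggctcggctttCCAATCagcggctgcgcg
H2-Aa, chr17:34287824-34287923, minus strand: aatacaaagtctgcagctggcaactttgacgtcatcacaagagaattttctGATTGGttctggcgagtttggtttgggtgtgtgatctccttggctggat
H2-Eb1, chr17:34305767-34305866, plus strand: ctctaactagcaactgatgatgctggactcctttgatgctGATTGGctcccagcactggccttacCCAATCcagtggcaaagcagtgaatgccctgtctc

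The Y box letters were present in 6 of the 7 windows, against 16.1% of 32851 windows over all genes. Distances from the start were -54 in B2m, -49 in H2-Aa, -53 in H2-D1, -6 in H2-K1 (9 bases downstream of its other annotated start) and -222 in Tap1, and H2-Eb1 held 2 matches, at -60 and -35. The match upstream of Tap1 lies between Tap1 and Psmb9, whose start sites are 225 bases apart on opposite strands. The response element was matched in 1 window, that of B2m at -139 (3.44% of all windows). The matches did not overlap each other. A match describes letters only, and none of these data measured binding.

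Levels differed widely between the genes. On the FPKM scale, the mean over 27 libraries was 496.4 for B2m, 63.7 for H2-D1, 29.5 for H2-K1, 5.16 for Tap1 and 2.01 for Psmb8. Class II means were 0.666 for H2-Ab1, 0.561 for H2-Eb1, 0.445 for Cd74, 0.0598 for H2-Aa and 0.0592 for Ciita. Class I genes were thus expressed throughout, and the class II genes sat near the detection limit. The last 3 fell below the filter for testing (a mean of at least 0.5 FPKM, met by 14932 genes), so 7 of the 10 members were tested. Fold changes are differences of log2(FPKM + 0.1), which understates the change of low genes, and a gene was called where limma's adjusted p was at most 0.05 and the log2 fold change at least 0.58 in size.

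**Figure D1:**
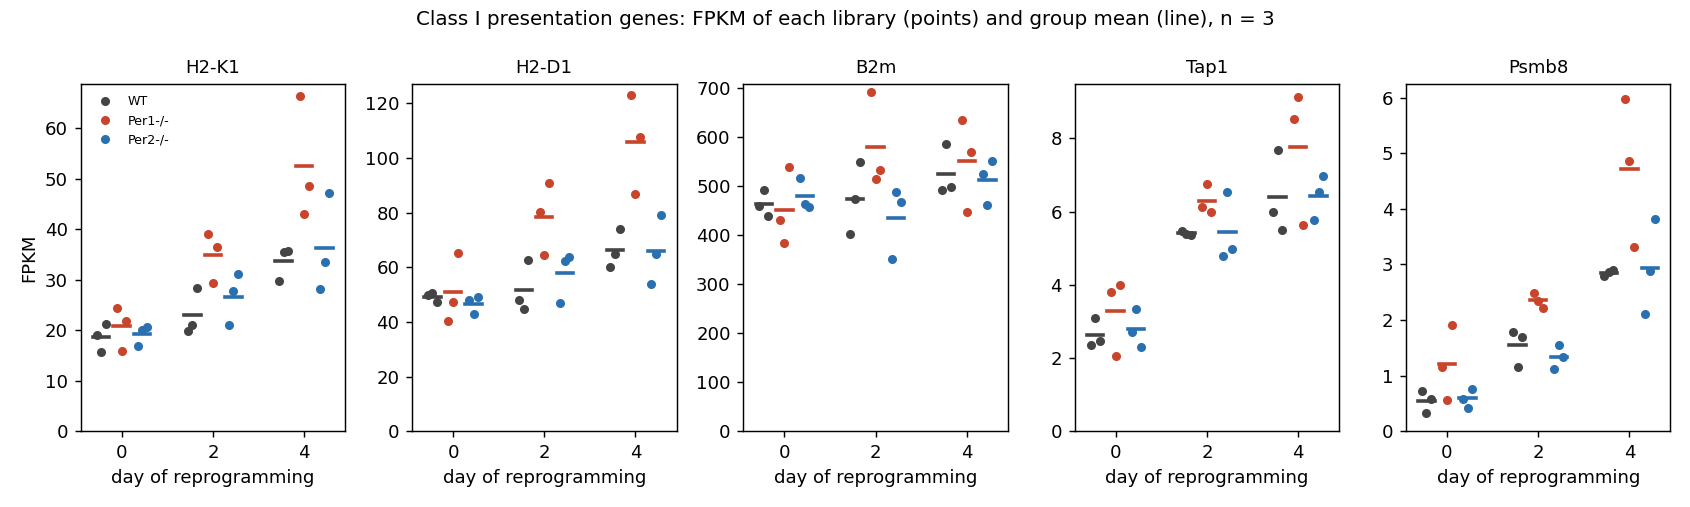
FPKM of the 5 class I genes in each of the 27 libraries, by genotype and day (linear axes from 0, one panel a gene), with points for libraries and lines for the group mean of 3. All day 4 points of Tap1 and Psmb8 sat above all of their day 0 points (19.8% of tested genes), and B2m stayed between 351 and 691 FPKM throughout.

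From day 0 to day 4, H2-K1, Tap1 and Psmb8 rose in all 3 genotypes. H2-D1 rose in Per1-/- and missed the fold threshold in the other genotypes, and B2m passed in none. Counted over the 7 tested members, 3 were called higher in WT, 4 in Per1-/- and 3 in the libraries labeled Per2-/-, where 22.9%, 22.6% and 21.6% of all tested genes were called higher. From day 0 to day 2 the counts were 3, 5 and 3, against 20.8%, 20.8% and 18.7%. The share of all tested genes called higher in all 3 genotypes was 17.6% on day 4 and 15.5% on day 2, so a rise over time was common in these cultures. In such bulk samples fewer cells of a type and less RNA per cell cannot be told apart.

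H2-K1, a classical heavy chain, stood at 19.0, 15.6 and 21.3 FPKM in the 3 WT libraries of day 0 and at 29.7, 35.5 and 35.6 FPKM on day 4. Per1-/- libraries held 24.4, 15.97 and 21.9 FPKM on day 0 and 66.2, 43.0 and 48.4 FPKM on day 4. In the libraries labeled Per2-/- the gene went from 16.8, 20.0 and 20.7 FPKM to 28.1, 33.5 and 47.0 FPKM. Every one of the 9 day 4 libraries lay above every one of the 9 day 0 libraries, a separation that 19.8% of tested genes showed. The log2 fold change was 0.85 in WT (SE 0.206, limma adjusted p = 0.00117), 1.34 in Per1-/- (adjusted p = 1.08e-05) and 0.89 in the libraries labeled Per2-/- (adjusted p = 0.000905), that is 1.81-fold, 2.52-fold and 1.85-fold. By day 2 the change was called in Per1-/- alone, at 0.76 (adjusted p = 0.00337), beside 0.30 in WT and 0.46 in the libraries labeled Per2-/-, with day 2 values of 19.8, 21.0 and 28.3 FPKM, 39.0, 29.3 and 36.4 FPKM, and 21.1, 27.7 and 31.0 FPKM. Without replicate 1 of the day 2 libraries labeled Per2-/-, that genotype was called as well, at 0.62.

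H2-D1, the other heavy chain, was more abundant than H2-K1 in each of the 9 groups. WT libraries held 49.7, 50.4 and 47.1 FPKM on day 0, 48.0, 44.7 and 62.8 FPKM on day 2 and 60.2, 64.8 and 74.1 FPKM on day 4. The Per1-/- values were 40.3, 47.2 and 65.2 FPKM, then 80.4, 64.4 and 91.0 FPKM, then 123, 86.7 and 108 FPKM. Those labeled Per2-/- read 48.0, 43.0 and 49.1 FPKM, then 47.1, 62.5 and 63.8 FPKM, then 53.8, 64.8 and 79.3 FPKM. Within each genotype all day 4 libraries lay above all day 0 libraries (33.1%, 30.5% and 31% of tested genes). The log2 fold change from day 0 to day 4 was 1.07 in Per1-/- (SE 0.182, limma adjusted p = 3.29e-05), a rise of 2.10-fold, against 0.43 in WT (adjusted p = 0.0445) and 0.48 in the libraries labeled Per2-/- (adjusted p = 0.0267), both under the fold threshold. Rescaled so that every library has the same sum (TPM), these 2 changes were called, at 0.83 and 0.73. On day 2 H2-D1 rose in Per1-/- by 0.64 (limma, adjusted p = 0.00467), and the change fell under the fold threshold without Per1-/- replicate 1 of day 0 (0.49) or replicate 3 of day 2 (0.53). Without replicate 1 of day 4, the change to day 4 in the libraries labeled Per2-/- was called, at 0.62. The ratio of H2-D1 to H2-K1 narrowed from 2.69 ± 0.512 to 1.98 ± 0.132 in WT (SD, n = 3), with 2.53 and 2.03 in Per1-/- and 2.46 and 1.85 in the libraries labeled Per2-/-, which was not tested.

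B2m, the light chain shared by all class I molecules, did not pass the test in any comparison. Its log2 fold change from day 0 to day 4 was 0.18, 0.29 and 0.09 in WT, Per1-/- and the libraries labeled Per2-/- (limma, adjusted p = 0.336, 0.119 and 0.628). WT libraries held 458, 492 and 439 FPKM on day 0 and 492, 586 and 497 FPKM on day 4, a small shift in which the groups did not overlap (33.1% of tested genes rose so). Per1-/- libraries held 429, 384 and 538 FPKM on day 0, 691, 514 and 532 FPKM on day 2 and 633, 448 and 569.9 FPKM on day 4, and these days overlapped. Those labeled Per2-/- ran from 351 to 551 FPKM over the 3 days. The ratio of B2m to the sum of both heavy chains on day 0 averaged 6.84 in WT, 6.30 in Per1-/- and 7.29 in the libraries labeled Per2-/-. On day 4 it was 5.28 ± 0.680, 3.48 ± 0.157 and 5.14 ± 1.09 (SD, n = 3), so the light chain remained in excess of the heavy chains at the transcript level.

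Tap1, one subunit of the peptide transporter, rose early and about equally in all genotypes. Its day 0 values were 2.36, 3.08 and 2.47 FPKM in WT, 3.80, 2.06 and 3.98 FPKM in Per1-/- and 2.72, 3.34 and 2.31 FPKM in the libraries labeled Per2-/-. On day 2 it stood at 5.47, 5.40 and 5.36 FPKM, 6.12, 6.76 and 5.99 FPKM, and 4.78, 6.54 and 4.99 FPKM. Tap1 was the 1 member in which every day 2 library lay above every day 0 library (19.7% of tested genes). The log2 fold change to day 2 was 1.02, 0.97 and 0.94 (SE 0.21, limma adjusted p = 0.000288, 0.000482 and 0.000718) and to day 4 it was 1.24, 1.24 and 1.19 (adjusted p = 3.14e-05, 3.14e-05 and 5.87e-05). Day 4 values were 5.98, 7.68 and 5.49 FPKM, 8.52, 9.14 and 5.64 FPKM, and 5.78, 6.52 and 6.98 FPKM. The change from day 2 to day 4 was 0.22 to 0.27 and was not called, nor was any other member in this step in the main fit, which has no replicate block (3.21%, 2.44% and 4.06% of tested genes were called). The replicate block raised the number of genes called from 479 to 829 in WT and from 364 to 730 in Per1-/-, the genotypes whose numbers paired the libraries in this step, with 0 members called in either. In the libraries labeled Per2-/-, whose numbers did not pair all of them, it rose from 606 to 1051 and included H2-Ab1 and Psmb8. Some other settings also called members in this step, as listed in the closing section. Each of the Tap1 calls on day 2 and day 4 against day 0 held without any single replicate. Tap1 exons overlap 212 bases of Psmb9 on the opposite strand, and the libraries were not stranded, so fragments in that stretch cannot be assigned to a strand.

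Psmb8, the inducible proteasome subunit that takes the place of Psmb5 in the immunoproteasome, had the greatest log2 fold change from day 0 to day 4 of the members tested. It went from 0.730, 0.336 and 0.583 FPKM on day 0 to 1.78, 1.16 and 1.69 FPKM on day 2 and 2.80, 2.86 and 2.90 FPKM on day 4 in WT. In Per1-/- it went from 1.15, 0.569 and 1.91 FPKM to 2.49, 2.35 and 2.22 FPKM and then 5.97, 4.86 and 3.31 FPKM. The libraries labeled Per2-/- held 0.581, 0.427 and 0.764 FPKM, then 1.13, 1.56 and 1.34 FPKM, then 2.12, 2.88 and 3.81 FPKM. Days 0 and 4 did not overlap in any genotype (33.1%, 30.5% and 31% of tested genes rose so), and all 9 libraries of day 4 lay above all 9 of day 0 (19.8%). The log2 fold change from day 0 to day 4 was 2.23, 1.98 and 2.13 (SE 0.319, limma adjusted p = 3.89e-06, 1.79e-05 and 8.37e-06), or 4.70-fold, 3.94-fold and 4.37-fold. The step to day 2 was 1.37, 1.04 and 1.08 (adjusted p = 0.000911, 0.00781 and 0.00667), and in Per1-/- it was not called without replicate 2 of day 0 (0.63) and in a fit of its own groups alone (1.04), while with a pseudocount of 1 the libraries labeled Per2-/- missed the fold threshold (0.56). Psmb8 as a percent of Psmb5, its constitutive counterpart, moved on the FPKM scale from 0.45% to 4.05% in WT, from 1.09% to 6.87% in Per1-/- and from 0.532% to 4.42% in the libraries labeled Per2-/-. The standard proteasome transcript therefore stayed the more abundant throughout.

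**Figure D2:**
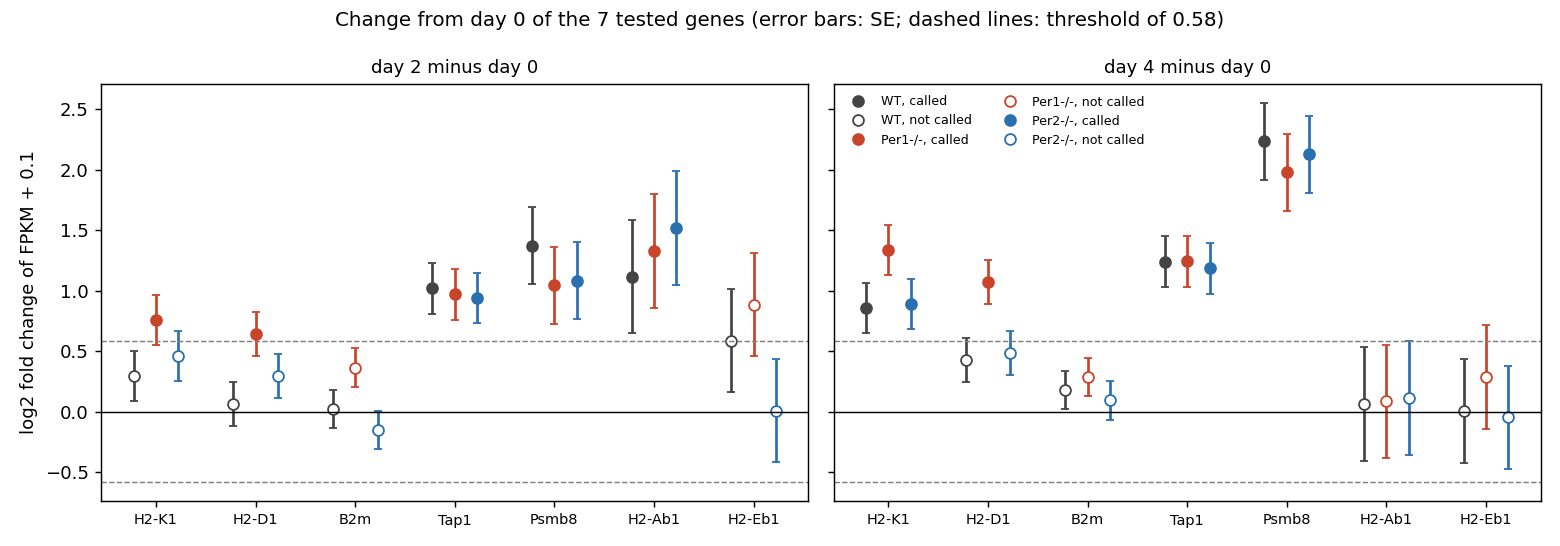
Log2 fold change from day 0 to day 2 and to day 4 of the 7 tested members in each genotype, as points with SE bars from limma, filled where called, and dashed lines at the threshold of 0.58. Psmb8 (1.98 to 2.23 on day 4) and Tap1 (1.19 to 1.24) lay above the threshold in all genotypes, while B2m (0.09 to 0.29) lay below it.

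The class II genes had few fragments in any library. H2-Ab1, the I-A beta chain, was higher on day 2 than on day 0 and was back near its starting level on day 4. In fragments, WT libraries held 20, 14 and 6 on day 0, then 37, 17 and 48 and then 16, 5 and 27. Per1-/- libraries held 20, 7 and 10, then 51, 32 and 43, then 19, 9 and 18, and those labeled Per2-/- held 8, 14 and 9, then 31, 52 and 33, then 6, 27 and 13. Days 0 and 2 did not overlap in Per1-/- and in the libraries labeled Per2-/- (29.4% and 30% of tested genes), and in WT they overlapped in FPKM. Mean levels on day 2 were 0.994 ± 0.466, 1.22 ± 0.187 and 1.21 ± 0.369 FPKM (SD, n = 3), against 0.413, 0.441 and 0.350 FPKM on day 0.

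The log2 fold change of H2-Ab1 from day 0 to day 2 was 1.12, 1.33 and 1.52 (SE 0.47, limma adjusted p = 0.0459, 0.0192 and 0.00927 in WT, Per1-/- and the libraries labeled Per2-/-). The WT call was lost without WT replicate 2 (1.17) or 3 (0.74) of day 0 or replicate 1 (1.16) or 3 (0.80) of day 2, with adjusted p of 0.0235 to 0.222 over the 6 replicates left out, and it was also lost with a pseudocount of 1 (0.48). The Per1-/- call was lost without replicate 2 of day 0 (1.10) or replicate 1 (1.26) or 3 (1.27) of day 2, with adjusted p of 0.0141 to 0.0848. In the libraries labeled Per2-/- the call held without any 1 replicate (adjusted p 0.0122 to 0.0487). From day 2 to day 4 H2-Ab1 changed by -1.05, -1.25 and -1.41 with adjusted p = 0.213, 0.141 and 0.0732 (limma), which was not called. Leaving out replicate 2 of the day 4 libraries labeled Per2-/- brought that change to -1.85, which was called.

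H2-Eb1, the I-E beta chain, passed in no comparison. It held 4 to 26 fragments per library, and its mean level ranged from 0.311 FPKM in Per1-/- on day 0 to 0.862 FPKM in WT on day 2. The log2 fold change to day 2 was 0.58, 0.88 and 0.01 (SE 0.426, limma adjusted p = 0.245, 0.0795 and 0.988), and to day 4 it was 0.01, 0.29 and -0.05. The WT libraries of day 0 showed the spread behind this, at 1.02, 0.286 and 0.505 FPKM.

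H2-Aa, the partner chain of H2-Ab1, was all but undetected. It summed to 61 fragments in the 27 libraries, with 10 libraries at 0 and a highest level of 0.277 FPKM. A count of 0 allows up to 3 fragments, or 0.0618 to 0.108 FPKM at the depths of these libraries, and this limit covers counting error only. No day separated from another.

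Cd74, the invariant chain, held 1 to 24 fragments per library. On day 0 it stood at 18, 5 and 5 fragments in WT, 9, 19 and 4 in Per1-/- and 1, 5 and 14 in the libraries labeled Per2-/-. On day 4 it stood at 14, 20 and 15, at 20, 18 and 23, and at 15, 22 and 23 fragments. The levels were then 0.548 ± 0.0828, 0.729 ± 0.0477 and 0.663 ± 0.161 FPKM (SD, n = 3), with every Per1-/- library above every WT library (as in 7.98% of the tested genes). Fitted without the filter, the log2 fold change of Cd74 from day 0 to day 4 was 0.74, 0.74 and 1.32 (limma, adjusted p = 0.403, 0.388 and 0.0883), which was not called. With voom on genes of at least 10 fragments over all libraries, a setting chosen after seeing the data, the change was called in the libraries labeled Per2-/- (1.77, adjusted p = 0.0436), beside 0.95 and 0.87 in WT and Per1-/-.

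Ciita, the coactivator that governs class II genes, rose from very few fragments. WT libraries held 2, 3 and 9 fragments on day 0, then 14, 8 and 4 and then 14, 27 and 26. Per1-/- libraries held 6, 3 and 3, then 14, 6 and 8, then 24, 13 and 23, and those labeled Per2-/- held 5, 7 and 6, then 10, 8 and 6, then 13, 25 and 26. All 9 day 4 libraries lay above all 9 day 0 libraries in FPKM, as in 19.8% of the tested genes. Mean levels went from 0.0244, 0.0248 and 0.0351 FPKM on day 0 to 0.109, 0.104 and 0.105 FPKM on day 4. Fitted without the filter, the change to day 4 was called in each genotype, at 0.75, 0.71 and 0.58 on the log2(FPKM + 0.1) scale (limma, adjusted p = 0.0014, 0.00252 and 0.0115). With voom on genes of at least 10 fragments over all libraries it was 2.26, 1.94 and 1.42 (adjusted p = 0.000428, 0.00219 and 0.0135). Ciita exons overlap 329 bases of Dexi, a gene on the opposite strand with far more fragments, whose mean went from 4.73, 4.78 and 4.62 FPKM on day 0 to 7.26, 6.66 and 7.30 FPKM on day 4 (log2 fold change 0.61, 0.47 and 0.65). Without strand, reads of Ciita and Dexi in that stretch cannot be told apart, and their part in the Ciita counts was not tested.

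**Figure D3:**
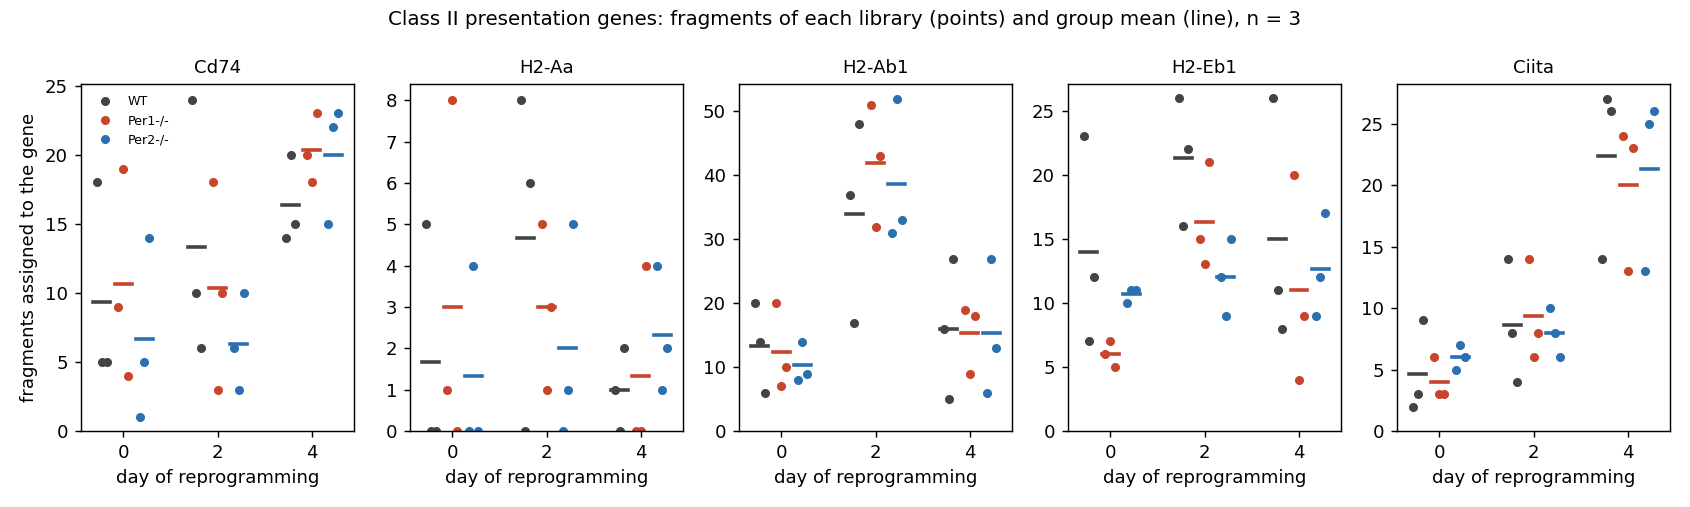
Fragments per library of the 5 class II genes by genotype and day (linear axes from 0), 1 point per library and a line for the group mean of 3. By group means H2-Ab1 stood highest on day 2 (17 to 52 fragments), Ciita on day 4 (13 to 27), and H2-Aa stayed at 0 to 8 fragments.

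The next comparison was between genotypes on the same day, the question the knockouts pose. No member was called in any of the 9 comparisons, in which few genes were called at all. For Per1-/- against WT these were 0.0134%, 0.0067% and 0.0268% of tested genes in the order of the days, for Per1-/- against the libraries labeled Per2-/- 0.0201%, 0.0737% and 0.556%, and for the latter against WT 0.0067%, 0.0268% and 0.0067%. The authors, with DESeq2 and the same thresholds, report more genes that differ in Per1-/- from both other genotypes on days 2 and 4. A member not called here is therefore not shown to be equal between genotypes. By unadjusted p under 0.05, limma marked 1, 2 and 3 of the 7 members for Per1-/- against WT, and 1, 3 and 3 for Per1-/- against the libraries labeled Per2-/-. It marked 0 members for the libraries labeled Per2-/- against WT on all 3 days. Of all 14932 tested genes, 719, 410 and 924 fell under this p for Per1-/- against WT, 892, 1228 and 1974 for Per1-/- against the libraries labeled Per2-/-, and 588, 429 and 511 for the latter against WT. The 2 sets of Per1-/- comparisons share the Per1-/- libraries. On day 0 no member had every Per1-/- library above every WT library (2.31% of tested genes), above every library labeled Per2-/- (3.64%) or above all 6 (0.643%). No member had every library labeled Per2-/- above every WT library on day 0, 2 or 4 (2.78%, 4.29% and 4.11%).

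On day 4 the level of H2-D1 was 106 ± 18.3 FPKM in Per1-/-, 66.4 ± 7.08 FPKM in WT and 66.0 ± 12.8 FPKM in the libraries labeled Per2-/- (SD, n = 3), with every Per1-/- library above all 6 others (4.92% of tested genes, and 11% above the libraries labeled Per2-/- alone). The log2 difference of Per1-/- from WT was 0.66 (95% confidence interval 0.29 to 1.04, limma adjusted p = 0.415), and from the libraries labeled Per2-/- it was 0.68 (0.31 to 1.06, adjusted p = 0.0835). The latter was called when the recovered fragments were weighted with limma's voom (0.68). H2-D1 also lay above all 6 others on day 2 (3.07% of tested genes, and 8.59% above the libraries labeled Per2-/- alone), when Per1-/- exceeded WT by 0.60 (limma, adjusted p = 0.999). On day 0 the difference from WT was 0.02, with overlapping groups.

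H2-K1 averaged 52.6 ± 12.2 FPKM in Per1-/-, 33.6 ± 3.38 FPKM in WT and 36.2 ± 9.75 FPKM in the libraries labeled Per2-/- on day 4 (SD, n = 3). Its difference of Per1-/- from WT was 0.62 (0.20 to 1.05, limma adjusted p = 0.573) by day 4, 0.61 (adjusted p = 0.999) by day 2 and 0.14 at the start. Every Per1-/- library exceeded every WT library on both later days (5.26% of tested genes on day 2, 7.98% on day 4). Against the libraries labeled Per2-/- the difference on day 4 was 0.55 (adjusted p = 0.236), with overlap.

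Psmb8 was 0.67 above WT in Per1-/- at day 4 (0.002 to 1.33, limma adjusted p = 0.805) and 0.92 above at day 0 (0.26 to 1.59, adjusted p = 0.831), where the groups overlapped. On day 2 every Per1-/- library exceeded all 6 others in Psmb8 (3.07% of tested genes), with differences of 0.60 from WT and 0.78 from the libraries labeled Per2-/- (limma, adjusted p = 0.999 and 0.487). Tap1 differed from WT by 0.26 (-0.18 to 0.70) and B2m by 0.06 (-0.27 to 0.39) on day 4. H2-Ab1 differed by 0.15 (-0.83 to 1.13) and H2-Eb1 by -0.37 (-1.26 to 0.52), intervals that leave room for large differences in either direction. The libraries labeled Per2-/- stood close to WT on day 4, at 0.08 for H2-K1, -0.02 for H2-D1 and 0.00 for Psmb8, and none was called.

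The change over time was also compared between genotypes. In the 6 such tests limma called 0 members and 0% of all genes, with 306 to 895 genes at an unadjusted p under 0.05. H2-D1 changed more from day 0 to day 4 in Per1-/- than in WT by 0.64 (0.11 to 1.17, unadjusted p = 0.0212, adjusted p = 1.0) and than in the libraries labeled Per2-/- by 0.59 (unadjusted p = 0.0329, adjusted p = 0.775). For H2-K1 the difference in change from WT was 0.48, for Tap1 0.00 and for Psmb8 -0.26. A larger rise of the heavy chains in Per1-/- was therefore not called after adjustment over all tested genes. The unadjusted interval of H2-D1 against WT lay above 0.

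Macrophage markers also differed between days and libraries. Of 16 macrophage markers, 13 were called higher on day 4 than on day 0 in WT, 15 in Per1-/- and 8 in the libraries labeled Per2-/-. The share of all tested genes called higher was 22.9%, 22.6% and 21.6%. The summed level of the 16 on day 0 was 229 to 509 FPKM in WT, 213 to 1172 FPKM in Per1-/- and 141 to 589 FPKM in the libraries labeled Per2-/-. On day 2 it was 330.2 to 546 FPKM, 647 to 1348 FPKM and 187 to 399 FPKM, and on day 4 it was 638 to 1139 FPKM, 1280 to 2295 FPKM and 488.5 to 840.0 FPKM. Limma called none of the 16 between Per1-/- and WT on any day (1, 4 and 5 at an unadjusted p under 0.05, beside 719, 410 and 924 of all 14932 tested genes), while the median log2 difference over them was 0.56, 1.00 and 1.06 on days 0, 2 and 4. The authors' own test of these libraries found macrophage genes higher in Per1-/- on days 2 and 4. The sum of H2-K1 and H2-D1 for comparison ran from 62.9 to 87.1 FPKM on day 0 in all 9 libraries, and on day 4 from 89.9 to 110 FPKM in WT, 130 to 189 FPKM in Per1-/- and 82.0 to 126 FPKM in the libraries labeled Per2-/-. By day 2 the mean macrophage sum went from 324 to 440.5 FPKM in WT and from 583 to 937 FPKM in Per1-/-. It went from 428.5 to 315 FPKM in the libraries labeled Per2-/-, by library from 589, 141 and 555 to 359.5, 187 and 399 FPKM. The mean heavy chain sum, in the same order of genotypes, went from 67.7 to 74.9, 71.6 to 113.5 and 65.9 to 84.4 FPKM. The part of macrophages in the class I levels was not tested. The ratio of H2-Ab1 to the macrophage receptor Adgre1, 1 of the 16 markers, averaged 0.099, 0.108 and 0.114 on day 0 in WT, Per1-/- and the libraries labeled Per2-/-. It averaged 0.145, 0.0847 and 0.255 on day 2 and 0.0208, 0.0102 and 0.0292 on day 4. Single libraries of day 0 ran from 0.0571 to 0.131, 0.029 to 0.230 and 0.0315 to 0.269. Those of day 4 ran from 0.00733 to 0.0297, 0.00904 to 0.0113 and 0.0113 to 0.0572. H2-Ab1 held few fragments, and the part of macrophages in its level was not tested.

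Markers of the other cells known for class II were low, as were the class II genes, which summed to 0.827 to 2.87 FPKM. Of the 7 dendritic cell markers, Cd209a was at 0 in all 27 libraries and Flt3 in 24, and Itgax reached 0.308 FPKM. The list summed to 0.458 to 1.63 FPKM. Its mean sum in WT, Per1-/- and the libraries labeled Per2-/- was 0.645, 0.9697 and 0.7449 FPKM on day 0. By day 4 this mean was 1.28, 1.497 and 1.2 FPKM. The part of dendritic cells in the class II levels was not tested. The B cell gene Ms4a1 was at 0 in 22 libraries, and the 5 B cell markers summed to 0 to 0.736 FPKM. Their mean sum, in the same order of genotypes, was 0.0619, 0.201 and 0.2452 FPKM on day 0. By day 4 it was 0.3318, 0.3093 and 0.4995 FPKM. T cell markers were listed for comparison, and Cd3e, Cd3d and Cd8a were at 0 in 26, 24 and 24 libraries. With Cd4 as well, the 4 T cell markers summed to 0 to 0.290 FPKM. The mean of this sum in WT, Per1-/- and the libraries labeled Per2-/- was 0, 0.00964 and 0.0285 FPKM on day 0. On day 4 it was 0.147, 0.208 and 0.1255 FPKM. Neuronal markers summed to 26.8 to 49.1 FPKM on day 0 and 95.5 to 181.8 FPKM on day 4.

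**Figure D4:**
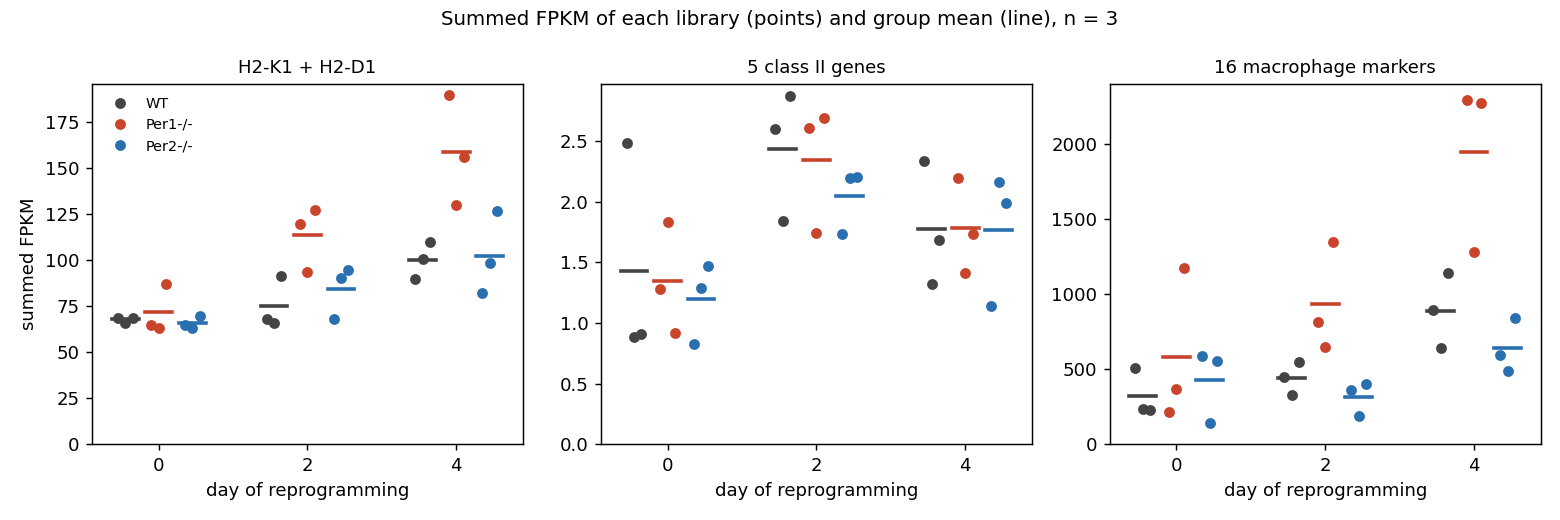
Summed FPKM of the heavy chains H2-K1 and H2-D1, of the 5 class II genes and of 16 macrophage markers in each library, by genotype and day (linear axes from 0), with lines for the group mean of 3. The heavy chains and the macrophage markers were highest in Per1-/- on day 4 (130 to 189 and 1280 to 2295 FPKM), and the class II sum stayed between 0.827 and 2.87 FPKM.

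The wider class I pathway was described through a list of 21 other genes, of which 19 were tested. From day 0 to day 4, 9, 10 and 8 were called higher and 3, 3 and 3 lower in WT, Per1-/- and the libraries labeled Per2-/-. Of all tested genes, 22.9%, 22.6% and 21.6% were called higher and 20.9%, 20.4% and 18.8% lower. The median log2 fold change of the list was 0.45, 0.76 and 0.52, where the median over all tested genes was -0.0198, -9e-04 and 0.0045. The greatest rises called in all genotypes were Psmb9, the immunoproteasome partner of Psmb8 (2.05, 2.00 and 1.74), H2-T23, the nonclassical heavy chain Qa-1 (1.38, 1.92 and 1.16), Tap2, the other transporter subunit (1.31, 1.14 and 1.07), and the class Ib gene H2-Q4 (1.02, 1.14 and 1.22). Tapbp, Erap1 and Cd1d1 rose in all genotypes too. The 3 that fell in all genotypes were Calr, Canx and Pdia3, the chaperones and oxidoreductase that serve glycoprotein folding at large, with Calr at -1.01, -1.09 and -0.90, and these names were picked out after their values were seen. Scaled as TPM, under which the median change over all genes was 0.38, 0.26 and 0.25 (log2), Calr was still called lower (-0.61, -0.82 and -0.65), while in WT Canx (-0.55) and Pdia3 (-0.48) were not. Reads of class I genes with close copies may be divided uncertainly between them.

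In all 3 catalytic pairs of the proteasome the inducible subunit was higher relative to its constitutive counterpart on day 4 than on day 0 by group means, which was not tested. Psmb5 fell by 0.80 in WT and by 0.73 in Per1-/- and in the libraries labeled Per2-/- on the log2 scale, and as TPM its change was -0.40, -0.46 and -0.48 and was not called. Psmb9 as a percent of Psmb6 went from 0.276% to 2.17% in WT, from 0.482% to 3.22% in Per1-/- and from 0.397% to 2.33% in the libraries labeled Per2-/-. Psmb10 as a percent of Psmb7 went from 30.4% to 52.2%, from 31.4% to 73.7% and from 33.1% to 57.8%. Ratios within a library do not depend on its scaling. The ratio of Tap1 to Tap2, by contrast, was 1.32 to 1.5 in group means on day 0 and 1.40 to 1.51 on day 4.

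**Figure D5:**
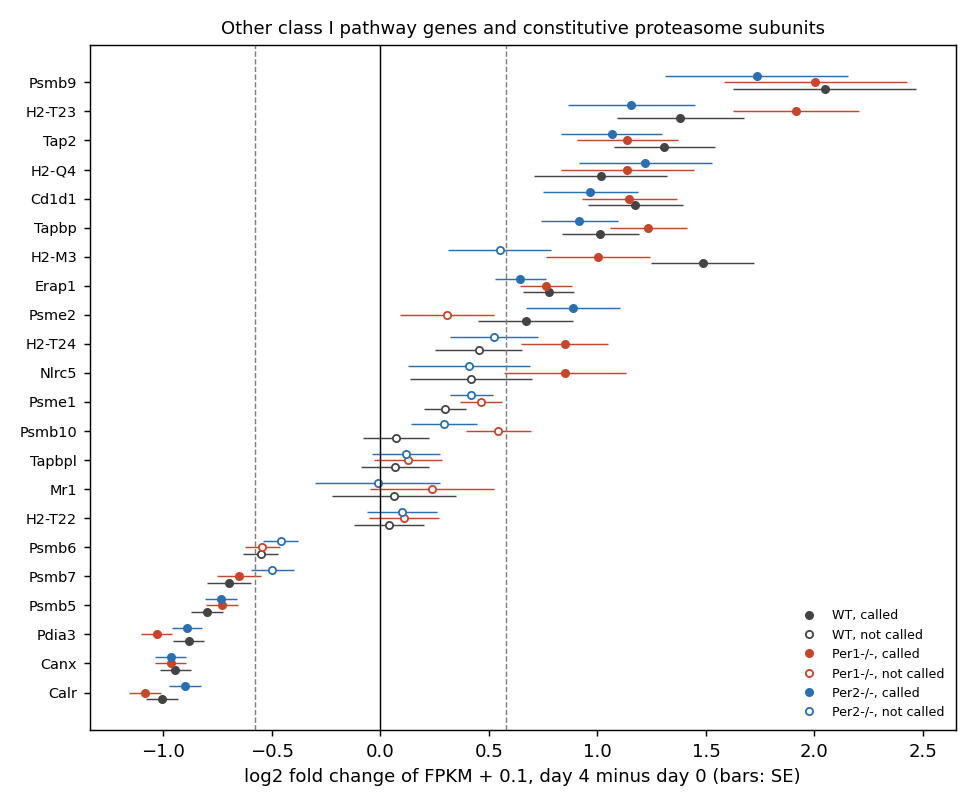
Log2 fold change from day 0 to day 4 of 19 other class I pathway genes and the constitutive proteasome subunits Psmb5, Psmb6 and Psmb7, 1 point per gene and genotype with SE bars from limma, filled where called, and dashed lines at a size of 0.58. Within each genotype Psmb9 stood farthest to the right (1.74 to 2.05), and Calr, Canx and Pdia3 to the left of 0 on this scale in all genotypes (for Calr -1.09 to -0.90).

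Of 24 other class II genes, 18 were tested, and 5, 6 and 4 were called higher and 3, 2 and 3 lower from day 0 to day 4 (median 0.15, 0.25 and 0.18). Of all tested genes, 22.9%, 22.6% and 21.6% were called higher and 20.9%, 20.4% and 18.8% lower. March1, a ubiquitin ligase that removes class II molecules from the surface, rose by 1.98, 2.33 and 1.43. Creb1 (0.75, 0.67 and 0.70), which binds class II promoters, rose as well, as did Rfx5. The lysosomal protease Ctsl fell by 1.20, 1.07 and 1.33 and Ctsd fell by 0.89, 0.61 and 1.01. As TPM, Ctsd was no longer called in WT (-0.49) or Per1-/- (-0.34). Other class II chains were near the detection limit, with H2-Eb2 at 0 in 26 libraries and H2-Oa, H2-Ob and H2-DMb2, of the peptide exchange factors DO and DM, in 19, 11 and 9.

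Of 10 genes of interferon gamma signaling, 9 were tested, and 2, 4 and 1 were called higher from day 0 to day 4 with 0 lower. Among all tested genes, 22.9%, 22.6% and 21.6% were called higher and 20.9%, 20.4% and 18.8% lower. Ifng, the cytokine itself, was listed at 0 in all 27 libraries. Limma called no gene of the pathway lists between Per1-/- and WT on any day. At an unadjusted p under 0.05 it marked 2, 0 and 3 of the class I list, 1, 2 and 3 of the class II list and 0, 0 and 1 of the interferon gamma list in the order of the days, as it did 719, 410 and 924 of the 14932 genes tested. Lgmn, a lysosomal protease, was the 1 gene called between Per1-/- and the libraries labeled Per2-/- on day 4 (0.88, limma adjusted p = 0.0488).

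The genes most like the members over the 27 libraries were found by Pearson's r of log2(FPKM + 0.1) among 14845 genes outside the lists, a description in which libraries of the same group share genotype, day and processing. The mean of the 5 class I genes was followed most closely by Parp14 (r = 0.971), Slfn5 (0.970), Sp100 (0.967), Trim30a (0.963) and Oas1a (0.954). Its own members correlated with it at 0.971 for Psmb8, 0.958 for H2-K1, 0.904 for Tap1, 0.889 for H2-D1 and 0.625 for B2m. Each member is part of that mean, so these r are in part built in and are not comparable to those of the outside genes. For the mean of Cd74, H2-Aa, H2-Ab1 and H2-Eb1 the nearest were Timm21 (0.684), Snapc3 (0.648), A2m (0.648), Dynlt1-ps1 (0.638) and Mterf2 (0.628). Its own members, again each part of the mean, correlated with it at 0.521 (Cd74) to 0.713 (H2-Aa). With Spearman's rho 4 of the 5 class I neighbors were shared and 1 of the 5 class II neighbors.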

How the data were processed

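RNA-seq measured poly(A) transcripts, without strand, in 27 libraries grouped by the genotype and day in their labels. The authors aligned reads to GRCm38 with HISAT2 (version 2.0.5), counted them with featureCounts (1.5.0-p3) on Ensembl genes and deposited FPKM for 54532 genes. Fragments were recovered from FPKM and gene length (whole within 0.01). A mean FPKM of 0.5 or more admitted 14932 genes, which were tested on log2(FPKM + 0.1) with limma 3.58.1 (R 4.3.3, trend, Benjamini-Hochberg), the 9 groups sharing 1 estimate of the spread and p-values adjusted over all genes tested. Genes were called with adjusted p at or below 0.05 and a log2 change of 0.58 or more in either direction. Scripts were tested on simulated data. Depth, 15815013 to 24264097 fragments, limits the class II genes. The labels give no batch. Replicates differed by more than sampling noise (chi-square per degree of freedom 9.01 to 67.4). The members, all 10 of them named, the pathway and marker lists and the rules for naming further genes (the 4 greatest changes called in all genotypes per list, and the 5 most similar genes) were chosen with earlier results of these data known. Alternatives were other pseudocounts, filters and scalings, voom on recovered fragments, fits of fewer groups, a replicate block and leaving out each replicate. The authors' gene descriptions were not used, and some genes and a motif are not reported here. Replicate numbers were taken to pair libraries where all 3 same-numbered pairs correlated at r over 0.1 in their deviations from the group means, which held between days 2 and 4 in WT and between days 0 and 2 and days 2 and 4 in Per1-/-. The pairing comes from the data and not from the labels.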

Additional observations from a re-analysis of the deposited data

How the results depend on the processing

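Depth limits the class II genes above all, and the values below were computed after changing 1 choice at a time, except that voom with a minimum of fragments also changed which genes were tested. The number of members called changed as follows, and the cause was not tested. For Per1-/- against the libraries labeled Per2-/- on day 4 it went from 0 to 1 with voom, with or without a minimum of 10 fragments in all, which was chosen after seeing the data (H2-D1). From day 2 to day 4 it went from 0 to 1 in WT fitted with only its own groups. In Per1-/- that change went from 0 to 1 with a pseudocount of 1 and with both voom fits. In the libraries labeled Per2-/- it went from 0 to 2 with a pseudocount of 1, to 1 with both voom fits, and to 2 with a replicate block (H2-Ab1 and Psmb8). In the same libraries it went from 3 to 5 as TPM from day 0 to day 2, and from 3 to 5 with voom and the minimum from day 0 to day 4. Leaving out 1 replicate gave 3 to 5 called members for Per1-/- from day 0 to day 2 and 0 to 1 for the libraries labeled Per2-/- from day 2 to day 4. Libraries with the same replicate number deviated together in 14 of 27 pairs of the same genotype (r -0.017 to 0.294), and 22 of 27 libraries were most like their own number on both other days, a hint from the data and not the design. Over all genes the replicate block moved the calls from day 2 to day 4 from 479 to 829 in WT, from 364 to 730 in Per1-/- and from 606 to 1051 in the libraries labeled Per2-/-. The other 177 counts of called members without 1 replicate and 216 under other settings stayed within 1.5 times, as 380 and 589 log2 fold changes kept their direction and their side of the threshold.

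Signs turned for small differences that were not called. As TPM, B2m turned to -0.0766 for Per1-/- against WT on day 4 and to 0.18 from day 0 to day 2 in the libraries labeled Per2-/-, and H2-Eb1 to 0.18 from day 0 to day 4 in the latter. H2-Eb1 in WT from day 0 to day 4 turned to -0.0277 with voom and -0.0276 with voom and the minimum. Without 1 replicate, ranges on day 4 for Per1-/- against WT were -0.0511 to 0.20 for B2m, -0.38 to 0.52 for H2-Ab1 and -0.8155 to 0.12 for H2-Eb1. Against the libraries labeled Per2-/- they were -0.0141 to 0.24, -0.23 to 0.64 and -0.68 to 0.11 for the same genes, and -0.0918 to 0.26 for H2-Ab1 on day 2. From day 0 to day 4 they were, for H2-Ab1, -0.31 to 0.60 in WT, -0.15 to 0.33 in Per1-/- and -0.33 to 0.54 in the libraries labeled Per2-/-, and for H2-Eb1 -0.49 to 0.41, -0.16 to 0.63 and -0.25 to 0.16. From day 0 to day 2 they were -0.0828 to 0.16 for H2-D1 and -0.0869 to 0.14 for B2m in WT and -0.14 to 0.16 for H2-Eb1 in the libraries labeled Per2-/-. TPM moved the split of all called genes from 3414 higher and 3120 lower to 5532 and 1518 for day 4 against day 0 in WT, from 3378 and 3043 to 4717 and 1836 in Per1-/-, and from 3218 and 2800 to 4452 and 1760 in the libraries labeled Per2-/-. For day 2 against day 0 the split moved from 3101 and 2944 to 5621 and 1252, from 3101 and 2811 to 5365 and 1186, and from 2792 and 2508 to 4655 and 1267. For Per1-/- against the libraries labeled Per2-/- on day 4, 83 genes were called, and 266 with voom, 279 with voom and the minimum, 191 with a pseudocount of 1 and 18 as TPM.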
